A study of Mus musculus with 4 samples.

Results

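Schwann cells are the glia of peripheral nerves, and 8 genes of these cells and of the nerve sheath were examined in mouse fat: Mal, Prx, Pmp22, Mbp, Sox10, S100b, Ngfr and Cryab. The genes were chosen by symbol, with earlier results of these data known, and every non-control probe carrying one of these names was taken. They were measured by 15 probes, out of 41174 non-control probes and 27617 gene names on the array. White fat from female mice of the inbred laboratory strain C57BL/6 was compared between a high fat diet (HFD; High fat diet 32, CLEA Japan) and a low fat diet (LFD; CE2, CLEA Japan). Both diets began when the animals were 8 weeks old and lasted 18 weeks, and the series describes the model as diet-induced obesity. RNA from each sample, 500 ng, was hybridised to a 1-colour whole mouse genome array, with 2 arrays per diet on 1 slide. Each sample was tissue mixed from 3 mice, the labels name no fat depot, and they do not say whether the replicates of a diet were separate pools. The p-values thus reflect only how far these samples spread, which may be technical variation.

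In peripheral nerve a myelinating Schwann cell wraps an axon in a compacted spiral of its own membrane, while non-myelinating Schwann cells ensheath thin axons, such as the sympathetic fibres that reach fat. Sox10 is the transcription factor that defines the lineage. Pmp22, Mal and Mbp belong to compact myelin, Prx to the outer surface of the myelin sheath, S100b and Ngfr are commonly used Schwann cell markers, and Cryab is a small heat shock protein that is also found in myelinating Schwann cells. Most of these genes are also made by other cells, and in bulk tissue fewer cells of a type and less RNA per cell cannot be told apart.

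Values are processed signals, the background-subtracted brightness of a spot, and were compared as log2 signal relative to the 75th percentile of the array. Between 26420 and 27937 probes counted as well above background on 3 of the arrays, and 21312 did on HFD replicate 2. The lowest such probe stood at a log2 value of -3.18 on HFD replicate 2, against -4.62 to -4.38 on the other arrays, so that dim genes were harder to detect on that array. All 10 adipocyte markers were tested, none passed the test, and their signals summed to 1260 to 1470 times the 75th percentile. Their log2 differences (HFD minus LFD) ran from -1.28 to 2.18, so not passing does not mean unchanged. Of 10 Schwann cell markers, 5 were well above background on all 4 arrays, 3 on 1 to 3 arrays and 2 on none.

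Mal and Prx were called lower under HFD, and no member gene was called higher when each gene was read from its brightest tested probe. These 2 of 8 genes stood against a background of 5.61% of 17736 tested genes called lower and 5.69% called higher in limma at an adjusted p under 0.05, or 11.3% in either direction. The median log2 difference (HFD minus LFD) was -0.16 over the 8 genes and 0.02 over all tested genes. The diets did not overlap in 6 of the 8 genes, and in 68.8% of all tested genes. Over single probes, 13 of the 15 were tested, of which 4 were called lower and 1 higher, and 10 had diets that did not overlap. Over the 26054 tested probes, 5.27% were called lower, 5.39% higher and 10.7% either way, and 67.9% did not overlap. Of the 13 tested member probes 4 entered through LFD, being above background on both LFD arrays and not on both HFD arrays, and such entry favours probes that are higher under LFD. These were both Mal probes, the Prx probe and a Sox10 probe. The other 9 were above background on all 4 arrays, and of them 1 probe of Mbp was called lower and 1 of Ngfr higher. A different probe of a gene gave a different call for Mbp and Ngfr, as described with each gene. The direction of the calls depended on the dim probes: over probes above background on all 4 arrays, 1 member gene, S100b, was called, higher, and Mal and Prx were not tested. With normexp, a background correction described with Mal, 2 were called higher and 1 lower.

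**Figure D1:**
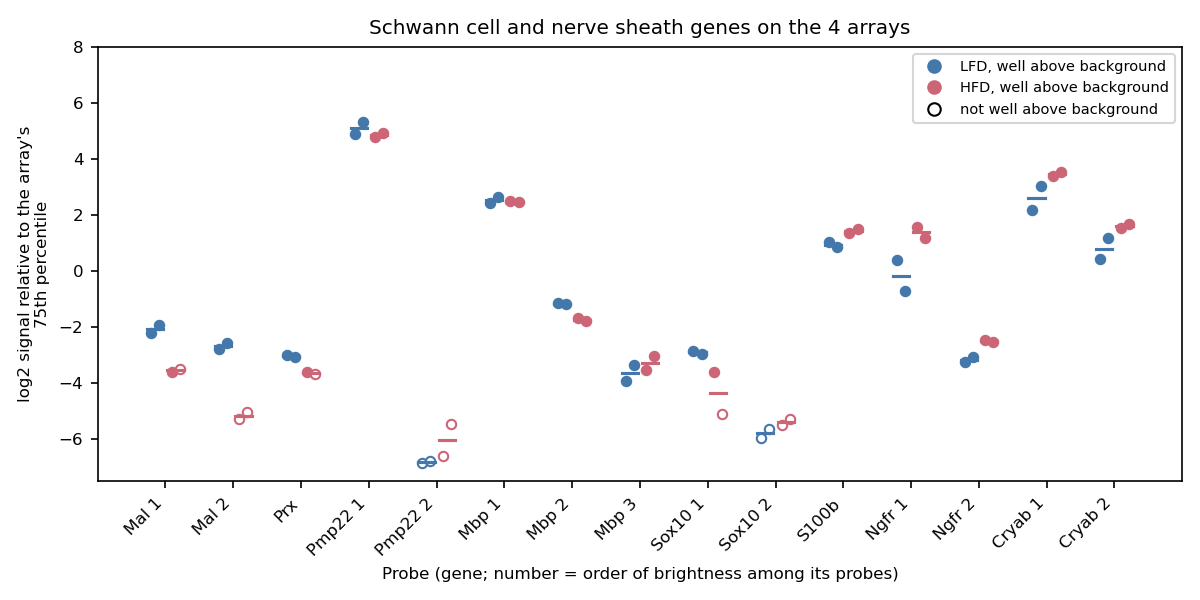
Log2 signal of the 15 probes on each array, relative to the array's 75th percentile (vertical axis), by probe (horizontal axis). Points are single arrays, bars are means of the 2 arrays of a diet, and open points were not well above background. The LFD and HFD points of Mal and Prx are apart and near the detection limit under HFD, and the HFD points of S100b, Ngfr and Cryab lie above the LFD points.

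Mal, a tetraspan protein of myelin and of the apical membranes of epithelia, had the smallest p among the members and was lower under HFD at both of its probes. It was measured by 2 probes on the minus strand of chromosome 2, which the files place at chr2:127458948-127458975 and chr2:127459473-127459532 (build mm9, for which no annotation was used here). The first interval, of the brighter probe, spans 28 bases although the probe has 60, so it does not cover the whole probe. The first 30 bases of each probe, from the deposited files, are shown because both probes gave the same call.
Mal brighter probe: gagaatctgcaaagtcagacgttctgctag
Mal dimmer probe: tcactagctgatgttttattctccaacaaa
Signals at the brighter probe were 180.2 and 223.2 under LFD and 71.3 and 69.5 under HFD, the second of these not well above background. Both LFD arrays were high and both HFD arrays low, without overlap, and the log2 difference was -1.47 ± 0.13 (SE, n = 2 per diet; limma adjusted p = 0.018), a 2.77-fold lower level under HFD. The dimmer probe gave 121.8 and 144.8 under LFD against 21.8 and 23.6 under HFD. Its HFD signals were not well above background, so its fall is given as at least 2.17-fold, with limma adjusted p = 0.0137. That bound sets the LFD mean against the mean of, for each HFD array, the probe's own signal or the lowest one well above background, whichever is higher. It holds for this background handling only. With another background correction (normexp, which models background as noise added to signal), the log2 differences of the 2 probes were -0.72 (limma adjusted p = 0.0144) and -0.80 (limma adjusted p = 0.0134). Without HFD replicate 1 the brighter probe had limma adjusted p = 0.0736 and without HFD replicate 2 limma adjusted p = 0.0903. Without those arrays the dimmer probe had limma adjusted p = 0.0585 and 0.0593. Without these arrays 2 and 9 genes were called in the whole table, in that order, in place of 2005.

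Prx encodes periaxin, a scaffold protein that links the myelinating Schwann cell to its basal lamina. Its 1 probe lies on the plus strand at chr7:28304333-28304392 (mm9) and begins with these 30 bases, shown because the gene's call rests on it.
Prx probe: tgagtagccacgctgagtaccaggtagttg
Signals were 103.4 and 100.8 under LFD and 69.9 and 61.9 under HFD, the second of these not well above background. The groups did not overlap, and the log2 difference was -0.59 ± 0.09 (SE, n = 2 per diet; limma adjusted p = 0.0379), 1.51-fold lower. The spots' brightness before background subtraction was 203.5 and 215.6 under LFD and 186.9 and 203.9 under HFD, and on that scale the diets overlapped. With normexp the difference was -0.16 (limma adjusted p = 0.397). The call was lost in 8 of 13 alternatives, including each array left out, where limma adjusted p ranged from 0.0631 to 0.211.

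Pmp22 is a tetraspan protein of compact myelin that fibroblasts and other cells also make. Its bright probe, on the plus strand at chr11:62972914-62972973 (mm9), gave 24793.4 and 34444.3 under LFD and 23882.1 and 24117.7 under HFD. LFD replicate 2 was higher and the other arrays were alike; the log2 difference was -0.25 ± 0.18 (SE, n = 2 per diet), with a 95% interval of -0.74 to 0.25 and limma adjusted p = 0.386. A further Pmp22 probe, on the minus strand at chr11:62943886-62943945, was not well above background on any array and was not tested.

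Among the relatives of Pmp22 and Mal, 13 of 13 were tested, 3 were called higher and 1 lower, with a median log2 difference of 0.18. For this and the lists below, the background was 5.69% of all tested genes called higher and 5.61% lower. Emp3 and Emp1, epithelial membrane proteins of the PMP22 family, were 2.24-fold (limma adjusted p = 0.0228) and 1.97-fold (limma adjusted p = 0.04) higher under HFD. Plp2, a MAL-related membrane protein, was 1.53-fold higher (limma adjusted p = 0.0432). Perp, a PMP22-family protein of epithelial desmosomes, gave 858.3 and 893.4 under LFD and 177.3 and 111.3 under HFD, 6.07-fold lower (limma adjusted p = 0.0163).

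Mbp, myelin basic protein, holds the cytoplasmic faces of myelin together; its locus also gives golli transcripts in other cells. Its 3 probes did not give the same result. The brightest gave 4486.8 and 5320.8 under LFD and 4814.5 and 4339 under HFD. The diets overlapped, and the log2 difference was -0.06 ± 0.11 (SE, n = 2 per diet; limma adjusted p = 0.746). The second was printed 10 times on each array and gave means of 377 and 378.1 under LFD and 267.4 and 230.9 under HFD. Its log2 difference was -0.57 ± 0.10 (SE, n = 2 per diet; limma adjusted p = 0.0408), 1.48-fold lower, with spot-to-spot CVs of 4.71 to 10.8%. The third gave 54.6 and 84.4 under LFD and 74.4 and 96 under HFD, a log2 difference of 0.35 ± 0.28 (SE, n = 2 per diet; limma adjusted p = 0.414). The 10-spot probe and the dimmest probe are assigned to the same transcript record, and the brightest probe to a different one. Which transcripts each probe measures was not tested here. The 10-spot probe lost its call in 7 of 13 alternatives, normexp among them (-0.36, limma adjusted p = 0.0611), and without each single array (limma adjusted p from 0.0709 to 0.228).

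**Figure D2:**
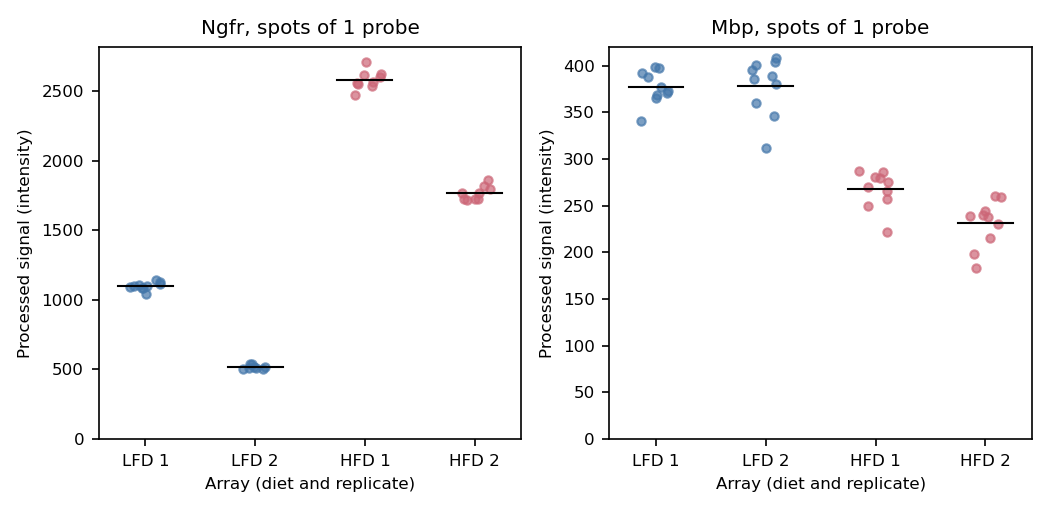
Processed signal (vertical axis, intensity from 0) of every spot of the replicated probes of Ngfr (left) and Mbp (right) on each array (horizontal axis); lines are means over unflagged spots. Spots of an array lie close together, so that the spread between the LFD arrays of Ngfr, 1098.9 against 517.3, is larger than the spread between spots.

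Sox10 was read from 1 tested probe, on the minus strand at chr15:78985505-78985564 (mm9). Signals were 115.2 and 109.6 under LFD, and 70.2 and 22.8 under HFD. The HFD arrays were both lower but 2.81-fold apart, and the lower one was not well above background. The log2 difference was -1.45 ± 0.52 (SE, n = 2 per diet), with a 95% interval of -2.86 to -0.04 and limma adjusted p = 0.141. Brightness before background subtraction was 150.9 on both LFD replicate 1 and HFD replicate 1, and with normexp the difference was -0.25 (limma adjusted p = 0.152). On processed signals the difference was -2.19 without HFD replicate 1 and -0.71 without HFD replicate 2. The other Sox10 probe, at chr15:78986883-78986942, was not well above background on any array.

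S100b, a calcium-binding protein that adipocytes also make, gave 1691.2 and 1543 under LFD and 2219.5 and 2208.3 under HFD. Its 1 probe lies on the plus strand at chr10:75722709-75722768 (mm9). Both HFD arrays were higher than both LFD arrays, with a log2 difference of 0.49 ± 0.12 (SE, n = 2 per diet; limma adjusted p = 0.069) that did not pass the threshold. It passed when only probes well above background on all 4 arrays were tested (limma adjusted p = 0.0433), with normexp (0.44, limma adjusted p = 0.0446) and under limma's trend and robust options (limma adjusted p = 0.0247).
Of a list of 6 other S100 genes and Ager, a receptor of S100 proteins, the 6 S100 genes were tested; 1 was higher and 1 lower. S100a4, a marker of fibroblasts and macrophages, was 3.16-fold higher under HFD (limma adjusted p = 0.0191). S100a1 was 2.13-fold lower (limma adjusted p = 0.0164).

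Ngfr encodes p75NTR, the low-affinity neurotrophin receptor, which immature and non-myelinating Schwann cells, some neurons and follicular dendritic cells of lymphoid tissue carry. Its brighter probe, on the minus strand at chr11:95430211-95430270 (mm9), was printed 10 times and gave means of 1098.9 and 517.3 under LFD and 2580.4 and 1765.6 under HFD. Both HFD arrays were higher, but the LFD arrays differed 2.18-fold, the largest gap between LFD replicates among the member probes, whereas the spots of 1 array varied with CVs of 2.54 to 2.87%. The log2 difference was 1.54 ± 0.42 (SE, n = 2 per diet; limma adjusted p = 0.0898), and it was 2.1 when LFD replicate 1 was left out and 0.98 when LFD replicate 2 was. The dimmer probe, at chr11:95435537-95435596, gave 86.8 and 102.6 under LFD and 157 and 133.4 under HFD. It was 1.58-fold higher under HFD (log2 difference 0.66 ± 0.12, SE, n = 2 per diet; limma adjusted p = 0.0456). Its call was lost in 7 of 13 alternatives, and without each single array (limma adjusted p from 0.0596 to 0.19). The brighter probe passed with normexp (limma adjusted p = 0.0404), and so did the mean of both probes (1.1, limma adjusted p = 0.0487).
The summed signal of 11 markers of B cells, T cells and follicular dendritic cells was 18 and 4.09 times the 75th percentile under LFD and 4.44 and 7.25 under HFD. LFD replicate 1, the higher LFD array of Ngfr, was the highest for this sum, but the list did not move as a whole. Between the LFD arrays Cr2, Cxcl13, Cd3e and Cd79a differed only 1.04- to 1.25-fold, and the other genes of the list 2.65- to 9.15-fold. The part of lymphoid tissue in the Ngfr values was not tested.

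The neurotrophins and their receptors, to which Ngfr belongs, were tested for 12 of 17 genes, of which 1 was called higher and 2 lower. Bdnf, a neurotrophin, gave 39.9 and 67.4 under LFD and 168.1 and 139 under HFD, 3.04-fold higher (limma adjusted p = 0.0408). It was dim under LFD, so the fold depends on the background subtraction. Brightness before it was 123.3 and 170.1 under LFD and 281.9 and 264.3 under HFD, a smaller relative gap. Ntrk3 and Ntrk2, receptors of neurotrophin-3 and Bdnf, were 3.28-fold (limma adjusted p = 0.0207) and 1.6-fold (limma adjusted p = 0.0383) lower.

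Cryab, which encodes alpha-B crystallin, a chaperone also abundant in muscle, was measured by 2 probes on the plus strand, at chr9:50564440-50564499 and chr9:50561281-50561340 (mm9). The brighter gave 3783.8 and 6915.8 under LFD and 8972.7 and 9085.8 under HFD; the dimmer gave 1113.4 and 1934.6 against 2470.2 and 2506.6. The HFD arrays were alike and above both LFD arrays, which differed 1.78-fold at the brighter probe. The log2 differences were 0.86 ± 0.30 (SE, n = 2 per diet; limma adjusted p = 0.138) and 0.80 ± 0.28 (SE, n = 2 per diet; limma adjusted p = 0.136). Without LFD replicate 2 the brighter probe passed (1.27, limma adjusted p = 0.0491).
Of the other small heat shock proteins and their co-chaperones, 11 of 12 were tested and 2 were higher. Hspb2, the neighbour of Cryab in the genome, was 1.57-fold higher (limma adjusted p = 0.0338). Hspb7, best known from heart, gave 111.5 and 191.1 under LFD and 459.7 and 453.4 under HFD, 3.21-fold higher (limma adjusted p = 0.0387). No gene of an 11-gene skeletal muscle list was called; its summed signal was 4.8 and 5.43 under LFD and 7.18 and 5.41 under HFD.

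**Figure D3:**
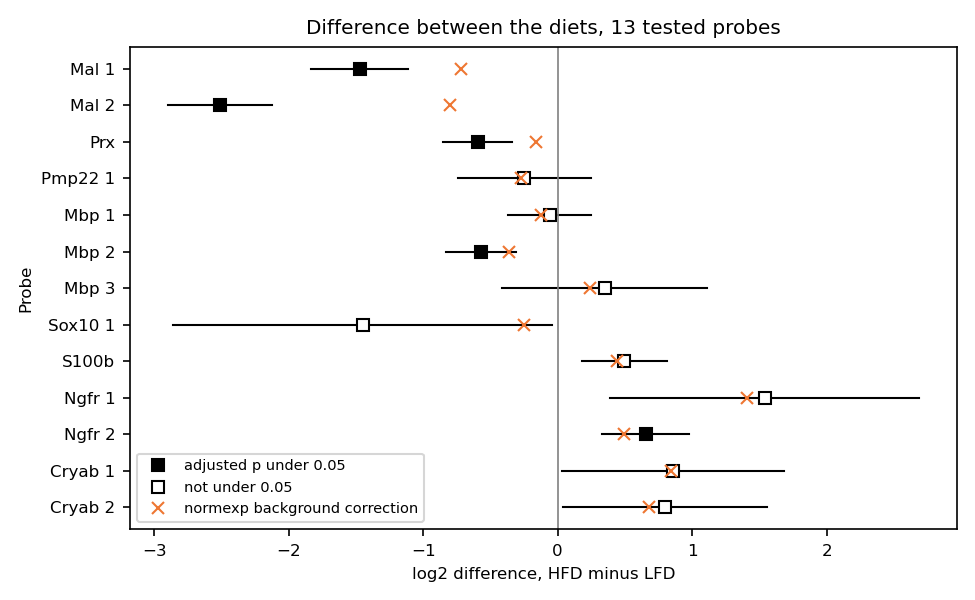
Log2 difference between the diets, HFD minus LFD (horizontal axis), of the 13 tested member probes (vertical axis). Squares are the limma estimates with 95% intervals, filled where the adjusted p was under 0.05, and crosses are the values with normexp background correction. The Mal probes lie farthest below 0, and their normexp values of -0.72 and -0.80 are closer to 0.

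Of 40 other Schwann cell and myelin genes, 24 were tested, of which 2 were called higher and 6 lower under HFD, with a median log2 difference of 0.14. The background share over all tested genes was that given with the members. Kcna1, a potassium channel of the axon beside the node, fell from 1341.7 and 1449.6 to 409 and 336, by 3.66-fold (limma adjusted p = 0.0137). Erbb3, the neuregulin receptor of Schwann cells, which epithelia also carry, was 1.81-fold lower (limma adjusted p = 0.0213). Pou3f1, a transcription factor of promyelinating Schwann cells, was 1.87-fold higher (limma adjusted p = 0.024). Egr2, the transcription factor that drives myelination and is also induced in immune cells, gave 858 and 446.8 under LFD and 3268.1 and 2655.7 under HFD. It was 4.89-fold higher (limma adjusted p = 0.0362), and was named after its values were seen, as were Sostdc1, Cadm4 and Scn7a, which were also called lower. No HFD array had Sostdc1 or Scn7a well above background, and by the bound described with Mal they were at least 1.86-fold and at least 1.99-fold lower. With an array left out, calls fell over all genes too, so those left among the 24 say nothing particular about Schwann cell genes.

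**Figure D4:**
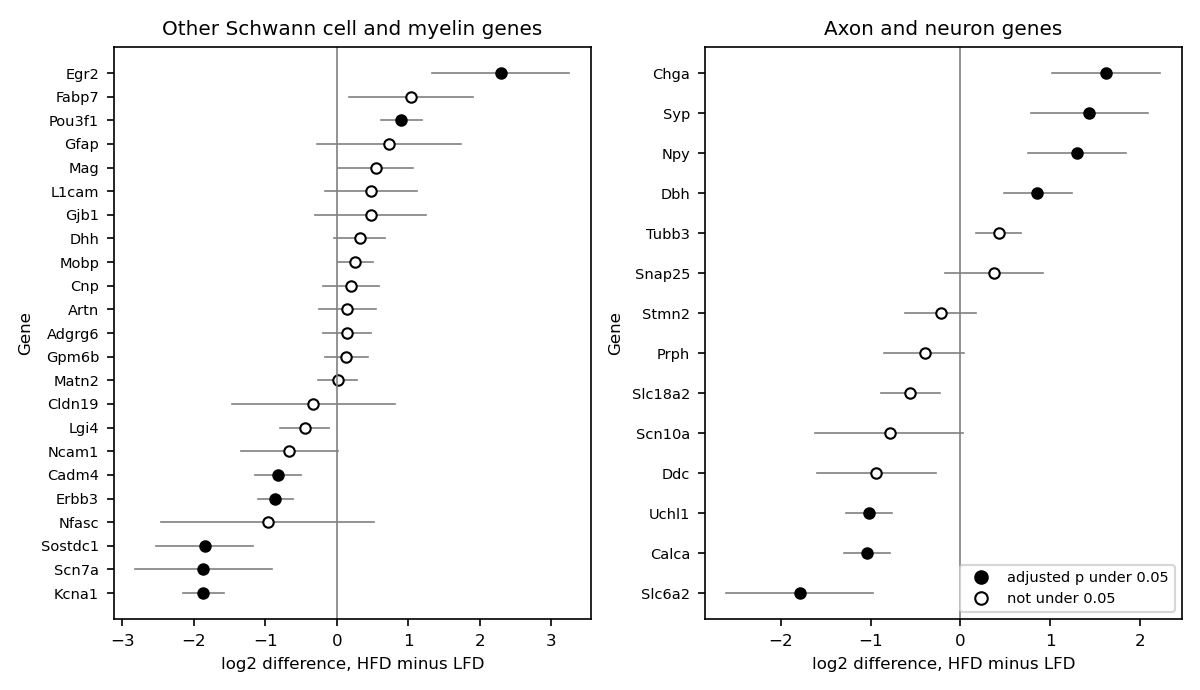
Log2 difference, HFD minus LFD (horizontal axis), of tested genes of the other Schwann cell and myelin list (left, 23 of the 24 genes) and of the axon and neuron list (right, 14 genes). Points are limma estimates with 95% intervals, filled where the adjusted p was under 0.05; both lists have called genes on both sides of 0.

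Among nerve sheath genes 1 was called, and axon genes were called in both directions. Over all tested genes, 5.69% were called higher and 5.61% lower, or 11.3% either way. Of 10 perineurium and endoneurium genes, 7 were tested and 1 was called: Sox9, a transcription factor of several progenitor types, 3.09-fold lower (limma adjusted p = 0.0411) and not well above background on HFD replicate 2. None of the 10 laminins, basement membrane receptors and their partner proteins that Schwann cells use passed in limma. Of these, Dag1, dystroglycan, had the smallest p (log2 difference -0.49 ± 0.09, SE, n = 2 per diet, limma adjusted p = 0.0507). Of 22 axon and neuron genes, 14 were tested, 4 were higher and 3 lower. Calca, the precursor of a sensory neuropeptide, and Uchl1, an enzyme of neurons, were 2.06-fold (limma adjusted p = 0.018) and 2.03-fold (limma adjusted p = 0.0188) lower. Chga, a protein of secretory granules, and Npy, the sympathetic cotransmitter, were 3.08-fold (limma adjusted p = 0.03) and 2.46-fold (limma adjusted p = 0.0371) higher. Npy was dim, at 42 and 61.8 under LFD and 133.7 and 111.3 under HFD. Among genes of noradrenaline synthesis and transport, Dbh was 1.82-fold higher (limma adjusted p = 0.0383) and Slc6a2 3.46-fold lower (limma adjusted p = 0.0408). Dbh was dim too, at 50.7 and 60.2 under LFD and 94.7 and 101.2 under HFD. Ddc and Slc18a2 were lower without being called. These genes were named after their values were seen, and Slc6a2 was not well above background on HFD replicate 2. Th, the rate-limiting enzyme of noradrenaline synthesis, was not tested because no probe passed. With an array left out, calls also fell over all genes, so the calls left among these 14 say nothing particular about axon genes.

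Most markers of urothelium and mesothelium, and some of mammary epithelium, were lower on the same arrays as Mal. Over all tested genes, 5.61% were called lower and 5.69% higher. Of 6 tested urothelium markers 5 were called lower under HFD, of which Krt20, Upk3a and Upk2 were not well above background on HFD replicate 2, and the summed signal of the list was 6.6 and 6.93 times the 75th percentile under LFD and 1.16 and 1.03 under HFD. Of 8 mesothelium markers 7 were called lower, with sums of 30.2 and 32.3 against 11.7 and 9.16. Of 9 tested mammary epithelium markers 4 were called lower, with sums of 11.6 and 11.7 against 2.74 and 2.49. These were Krt5, Krt18, Krt8 and Trp63, the last not well above background on HFD replicate 2. The other 5 were not called, with log2 differences of 0.10 to 0.64, and the median of the list was 0.10. Krt5, of the urothelium and mammary lists, was 10.8-fold lower (limma adjusted p = 0.01). Mal, Erbb3 and Perp are also made by such epithelia, and the part of these cells in their values was not tested. In the opposite direction, 5 of 7 macrophage markers were called higher, with sums of 175 and 159 under LFD and 252 and 266 under HFD. These sums mainly follow Lyz2, the brightest of the 7, which was 1.34-fold higher without being called (limma adjusted p = 0.0823). The part of macrophages in Egr2 and S100a4 was not tested.

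**Figure D5:**
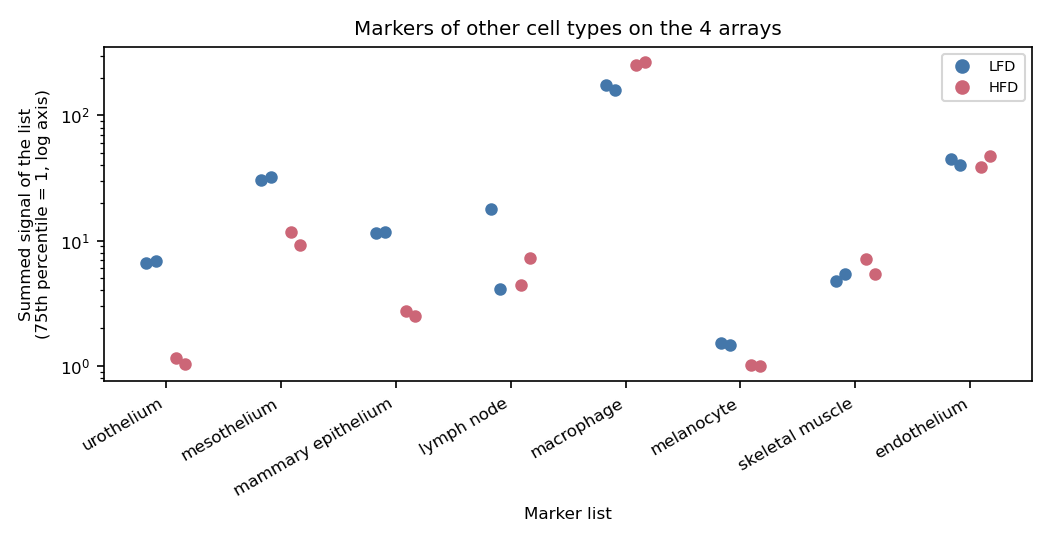
Summed signal of each marker list on the 4 arrays (vertical axis, logarithmic, in units of the array's 75th percentile), by list (horizontal axis); points are single arrays. The urothelium, mesothelium and mammary epithelium sums are lower on both HFD arrays, and the lymph node list is highest on LFD replicate 1, at 18.

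The genes whose log2 values over the 4 arrays, centred on their mean, were closest to those of Mal were Amy2a5, Asb12 and Cracdl, at Euclidean distances of 0.088, 0.088 and 0.11. In all, 237 genes lay within 0.5 of Mal, so that over 4 arrays this likeness is common.

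The 250 bases before the transcription starts of Mal and Prx are shown because these were the 2 member genes called. They come from RefSeq (GRCm38.p6), minus strand at chr2:127656696-127656945 and plus strand at chr7:27499074-27499323, printed in the direction of transcription.
Mal upstream: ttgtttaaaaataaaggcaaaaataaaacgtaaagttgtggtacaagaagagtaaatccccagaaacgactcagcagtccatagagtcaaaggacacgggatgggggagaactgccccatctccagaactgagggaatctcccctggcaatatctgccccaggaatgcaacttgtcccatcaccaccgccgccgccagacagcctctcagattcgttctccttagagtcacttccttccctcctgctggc
Prx upstream: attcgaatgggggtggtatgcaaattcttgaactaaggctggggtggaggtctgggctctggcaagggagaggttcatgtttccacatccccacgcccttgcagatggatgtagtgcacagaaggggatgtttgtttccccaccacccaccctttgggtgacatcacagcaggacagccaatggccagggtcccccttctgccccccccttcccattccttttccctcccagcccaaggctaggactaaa
SOX-type motifs (ACAAAG and ACAATG) and an EGR-type motif (GCGTGGGCG) were searched on both strands; the SOX-type motifs share their first 4 letters. Neither window held any of these letters. A SOX-type motif was present in 25.2% of 32851 such windows (16.5% for ACAAAG and 10.7% for ACAATG), and the EGR-type motif in 0.536%. Nor did the windows of Pmp22, S100b and Ngfr hold one.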

How the data were processed

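The authors deposited the scanner output of 4 arrays, whose processed signals are intensities on a linear scale; per the file headers, Feature Extraction 11.0.1.1 subtracted background (11.5.1.1 per the submitters' processing notes). The series' deposited value table is a ratio, each processed signal over the array's 75th percentile: linear and uncentred, with medians of 0.129, 0.137, 0.14 and 0.142. Spots of a probe were averaged without flagged spots (60 to 115 per array); none was saturated. Log2 signals, scaled to the 75th percentile, were fitted in limma 3.58.1 (R 4.3.3, data.table version 1.17.8; lmFit and eBayes, two-sided, 2 residual degrees of freedom, prior 2.24), with Benjamini-Hochberg adjustment over the 26054 probes that both arrays of a diet, LFD or HFD, placed well above background. A gene is its brightest tested probe. Probe names were updated by accession through RefSeq (27668 matched, 13506 kept the file's name). Named genes were all members, up to 4 called genes of smallest p per list, and the 3 genes nearest the member of smallest p; a few of these are not reported here. Members and lists were chosen with earlier results of these data known. The procedure was tested on simulated data. The number of arrays limits the precision. Alternatives were other filters, background corrections and scalings, the value table, flagged spots, probe means, eBayes options, the replicate block and each array left out.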

Additional observations from a re-analysis of the deposited data

How the results depend on the processing

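The member genes called numbered 2. Without a filter on dim probes 0 of 8 passed in limma (4 at an unadjusted p under 0.05), with only probes above background on all 4 arrays 1 of 5 (S100b, higher; Mal and Prx were not tested there), with normexp 3 (2 higher, 1 lower), and with each array left out 0 to 2. For member probes (5), the other Schwann cell list (8), the axon list (7) and all genes (2005), no filter gave 0 each (7, 13, 13 and 5607 at an unadjusted p under 0.05). The all-array filter gave 3 member probes (2 higher and 1 lower, in place of 1 and 4; normexp 3 and 2) and 4 Schwann list genes, and leaving out arrays gave 0 to 3, 0 to 3, 0 to 4 and 2 to 802. The trend and robust options called 3635 genes. Median scaling turned the split of called genes from 1010 higher and 995 lower to 853 and 1362, 38.5% higher in place of 50.4%.

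No replicate effect common to the diets was seen: the differences between replicates 1 and 2 correlated with r = -0.005 between diets over 26054 probes. This value cannot show whether the samples were paired by design. With the replicate block 1 member gene, 2 member probes, 2 Schwann list genes, 0 axon list genes (11 at an unadjusted p under 0.05) and 281 genes were called by limma. Prx then had -0.59 with limma adjusted p = 0.0751.

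Among single members, Mal kept its direction in 13 alternatives (-1.99 to -0.72; left out arrays -1.61 to -1.34) and lost its call without the filter (-1.47). Prx lost its call without the filter (-0.59), with normexp (-0.16) and with the trend and robust options (-0.59), and ranged from -0.63 to -0.56 with arrays left out. S100b passed at 0.49, 0.44 and 0.49 under the all-array filter, normexp and trend and robust options, and Ngfr at 1.41 (normexp) and 1.1 (mean of probes). Mbp ranged from -0.16 to 0.05 and Cryab from 0.44 to 1.27 with arrays left out; Mbp turned to 0.05 and Cryab passed at 1.27 without LFD replicate 2. The causes were not tested. The slide block was not run because there was 1 slide. With an array left out, the lone array is assumed to vary like the other diet's. Dim probes near background, Mal, Prx and Sox10 among them, limit what can be measured.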
